A study of Mus musculus with 20 samples.

Results

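JmjC histone demethylases were examined as 10 genes, Kdm2a, Kdm2b, Kdm3a, Kdm3b, Kdm4a, Kdm4b, Kdm4c, Kdm5a, Kdm5b and Kdm6b, taken by their symbols from a table of 33495 genes. All of them were measured by RNA-seq in each of 20 libraries from hearts of C57BL/6 mouse embryos, and all passed the filter on low counts in every comparison. The embryos carried 1 of 3 Cre transgenes or knock-ins, floxed alleles of Kmt2d, which encodes a histone H3 lysine 4 methyltransferase, and 1 copy of the mTmG reporter. Mutants were Cre; Kmt2d fl/fl; mTmG/+ and controls Cre; Kmt2d fl/+; mTmG/+, so that the controls, called WT in the labels, had also lost 1 allele in the cells where Cre acts. Mesp1Cre, active in early mesoderm, was sampled as whole hearts at E9.0 (4 mutants and 4 controls). Tnnt2::Cre, active in cardiomyocytes, was sampled as whole hearts at E11.5 (3 mutants and 3 controls). Mef2cAHF::Cre, active in anterior heart field precursors, was sampled as right ventricle with outflow tract at E11.5 (3 libraries labelled mutant and 3 labelled control). Each sample therefore also held cells in which the Cre was not active, and in such mixed tissue fewer cells of a type and less RNA per cell cannot be told apart.

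JmjC demethylases remove methyl groups from lysines of histones. They are dioxygenases that need iron, 2-oxoglutarate and molecular oxygen, and the family divides by the lysine that each enzyme acts on. KDM2A and KDM2B act on H3K36, KDM3A and KDM3B on H3K9, KDM4A, KDM4B and KDM4C on trimethylated H3K9 and H3K36, KDM5A and KDM5B on H3K4, and KDM6B on H3K27. KDM5 enzymes thus take away marks on the residue that KMT2D methylates. Kdm3a and Kdm4b are known from cultured cells as genes that hypoxia-inducible factor (HIF) turns on in low oxygen.

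Between genotypes, 8 of the 10 demethylases rose in Mesp1Cre mutants and none fell, beside 6.17% of all genes tested higher and 5.29% lower. In Tnnt2::Cre and Mef2cAHF::Cre no member passed the test, beside 0.293% and 2.85% of all genes. Between stages, 5 members were lower at E11.5 than at E9.0 in controls, where 18.8% of all genes were. Among genes at least as long and as abundant as the lowest member, the share was 36.3%. In mutants 8 members were lower, where these shares were 17.1% and 33.8%. The stage comparisons use the same libraries as those of genotype. A gene was called changed when the false discovery rate (FDR), which is the p of edgeR's quasi-likelihood test after Benjamini-Hochberg adjustment over all genes tested, was below 0.05. Levels are CPM, counts scaled to a common library total, after TMM normalization over all 20 libraries, and log2 fold changes are given ± standard error (SE). The labels do not state litters or cultures, so that p measures the spread between these samples. The sample descriptions hold a number, not explained there, that all 6 Tnnt2::Cre samples share, that Mesp1Cre replicates 1 and 2 of both genotypes share, and that differs for the replicates numbered 3 and 4 but is the same in both genotypes.

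Libraries held 21727258 to 45341870 counted reads, and each member had at least 300 reads in every library. The 14 cardiomyocyte markers summed to between 30200 and 69900 CPM in every library, and 6 foregut and liver markers to at most 12.4 CPM. Kmt2d itself, listed as Mll2, had 125, 141, 138 and 130 CPM in Mesp1Cre mutants and 160, 153, 157 and 148 CPM in their controls, lower in every mutant but with an FDR of 0.0764 in edgeR. In Tnnt2::Cre it had 114, 119 and 122 CPM in mutants and 166, 155 and 125 CPM in controls (FDR 0.327). In Mef2cAHF::Cre it had 183, 184 and 193 CPM in the libraries labelled mutant and 141, 153 and 154 CPM in those labelled control, a difference of 0.32 ± 0.06 on the log2 scale (FDR 0.0359) that goes against the label. The columns of the table name these 6 libraries by the opposite genotype, and signs for this line are given by the sample titles with the reversed reading beside them. Whole gene counts include reads from exons outside the floxed part, and from cells without Cre.

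The members sat at different levels per transcript length. In FPKM (fragments scaled by transcript length and library total), Kdm2a and Kdm3a took a rank from 1 to 3 among the 10 in every library, at 14.7 to 31.4 and 16.4 to 56.8 FPKM. Kdm5b (9.80 to 40.3 FPKM), Kdm5a (8.50 to 25.1 FPKM), Kdm3b (9.69 to 19.8 FPKM) and Kdm6b (6.40 to 20.3 FPKM) followed. These ranges overlapped, so the order among those members was not fixed over libraries. Kdm4c ranked 7 in all 20 libraries (4.41 to 12.4 FPKM), and Kdm2b, Kdm4a and Kdm4b took ranks 8 to 10. The KDM4 genes and Kdm2b were therefore the low-level members in every heart sampled.

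**Figure D1:**
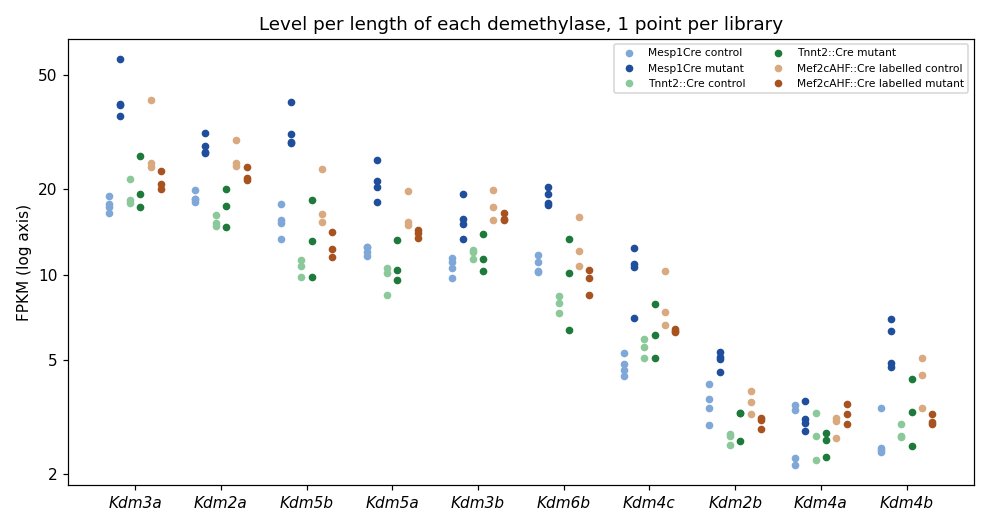
FPKM on a log axis for each demethylase, 1 point per library, with the genes ordered by their median over control libraries and the 6 groups in colours. Kdm3a and Kdm2a are at the top and Kdm2b, Kdm4a and Kdm4b at the bottom, and the points of the Mesp1Cre mutants reach the highest value for most genes.

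In Mesp1Cre, mutants and controls were compared to find which demethylases change when Kmt2d is lost from early mesoderm. Of 15883 genes tested, 6.17% were higher and 5.29% lower in mutants, beside 8 of 10 members higher and 0 of 10 lower. The members were chosen with earlier results of these data known, so setting them beside this share is a description and no test. Among genes at least as long and as abundant as the lowest member, a comparison added after the values were seen, 11.8% were higher. The median log2 fold change was 0.64 over the members and 0 over all genes tested. At an unadjusted p under 0.05 there were 9 members higher and 0 lower, where 26.9% of genes passed in either direction. For 9 members every mutant was above every control, as for 8.93% of all genes.

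Kdm3a, an H3K9 demethylase, had 249, 180, 174 and 156 CPM in the Mesp1Cre mutants and 93.6, 89.3, 79.1 and 85.6 CPM in the controls. Every mutant stood well clear of every control, and mutant 1 was the highest library of all 20. The change was 1.13 ± 0.13 on the log2 scale, or 2.19-fold (FDR 0.000153), the largest among the members. Its paralog Kdm3b had 139, 101, 111 and 113 CPM in mutants against 86.9, 92.8, 91.6 and 79.6 CPM in controls, a change of 0.41 ± 0.10 (FDR 0.0231). The groups did not overlap, but the call for Kdm3b was lost without control 1 (FDR 0.0653), control 4 (FDR 0.0705) or mutant 1 (FDR 0.0571), with sex as a covariate (FDR 0.0513), with erythroid content as a covariate (FDR 0.249) and on centred FPKM (FDR 0.0692). The ratio of Kdm3a to Kdm3b in FPKM was 2.71 ± 0.322 (SD, n = 4) in mutants and 1.65 ± 0.170 (SD, n = 4) in controls, with ranges of 2.30 to 2.97 and 1.44 to 1.79.

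The KDM4 genes, whose products act on trimethylated H3K9 and H3K36, did not move together. Kdm4b had 31.1, 29.5, 21.6 and 21.7 CPM in mutants and 12.3, 17.5, 12.1 and 12.1 CPM in controls, a rise of 0.95 ± 0.17 on the log2 scale (FDR 0.00392). Kdm4c had 66.8, 39.3, 59.6 and 56.5 CPM in mutants and 28.3, 29.9, 26.1 and 32.1 CPM in controls, a rise of 0.93 ± 0.15 (FDR 0.00188). These are changes of 1.93-fold and 1.91-fold without overlap between the groups, although mutant 2 lay closer to the controls for Kdm4c. Kdm4a had 18, 14.7, 15.9 and 15 CPM in mutants and 19.1, 20, 12.6 and 12.2 CPM in controls. These groups overlapped fully, with a log2 fold change of 0.00 ± 0.18 (FDR 0.998) whose sign turned with the setting. The ratio of Kdm4b to Kdm4a in FPKM was 1.83 ± 0.326 (SD, n = 4) in mutants and 0.973 ± 0.176 (SD, n = 4) in controls.

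Both H3K4 demethylase genes among the members, Kdm5a and Kdm5b, rose. Kdm5b had 286, 214, 208 and 219 CPM in mutants and 126, 124, 137 and 106 CPM in controls, a change of 0.91 ± 0.11 or 1.88-fold (FDR 0.000258). Kdm5a had 319, 237, 262 and 269 CPM in mutants and 182, 169, 176 and 173 CPM in controls, a change of 0.64 ± 0.09 or 1.56-fold (FDR 0.000621). In both genes the 4 mutants lay above the 4 controls, with mutant 1 highest. The ratio of Kdm5b to Kdm5a in FPKM was 1.53 ± 0.0979 (SD, n = 4) in mutants and 1.27 ± 0.127 (SD, n = 4) in controls.

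The H3K27 demethylase gene Kdm6b had 123, 113, 108 and 116 CPM in mutants and 71.9, 82.0, 74.2 and 69.9 CPM in controls, a rise of 0.63 ± 0.08 (FDR 0.000418). Among the H3K36 demethylases, Kdm2a had 209, 186, 190 and 176 CPM in mutants and 137, 141, 145 and 138 CPM in controls, a rise of 0.44 ± 0.07 (FDR 0.00226). In both genes all mutants were above all controls, and for Kdm6b the gap between the groups was wider than the range of either group. Kdm2b, whose product also brings a variant Polycomb repressive complex 1 to CpG islands, had 51.5, 51.4, 44.6 and 48.5 CPM in mutants and 40.1, 37.8, 43.9 and 32.3 CPM in controls. The lowest mutant was just above the highest control, and the difference of 0.35 ± 0.11 missed the threshold (FDR 0.0648). It passed without control 3 (FDR 0.0482), with the Wald test of DESeq2 (FDR 0.0248) and in the fit of all 6 groups (FDR 0.0129). Kdm2a and Kdm2b kept a similar ratio in FPKM, 5.63 ± 0.467 (SD, n = 4) in mutants and 5.33 ± 0.630 (SD, n = 4) in controls.

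Over all 6 groups, which differ in Cre line, stage and tissue, 8 of the 10 members had their highest mean in the Mesp1Cre mutants. For 3 of these, Kdm2b, Kdm5b and Kdm6b, all 4 mutants were above every library of the next group. For Kdm2a, Kdm3a, Kdm4b, Kdm4c and Kdm5a the Mesp1Cre mutants overlapped with the Mef2cAHF::Cre libraries labelled control, next in order. Kdm3b (130.1 ± 9.22 CPM, SD, n = 3) was highest in the Mef2cAHF::Cre libraries labelled control and Kdm4a (18.4 ± 1.54 CPM, SD, n = 3) in those labelled mutant. The shares of all genes with such an order were not counted, so whether this order is particular to the members is not known.

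**Figure D2:**
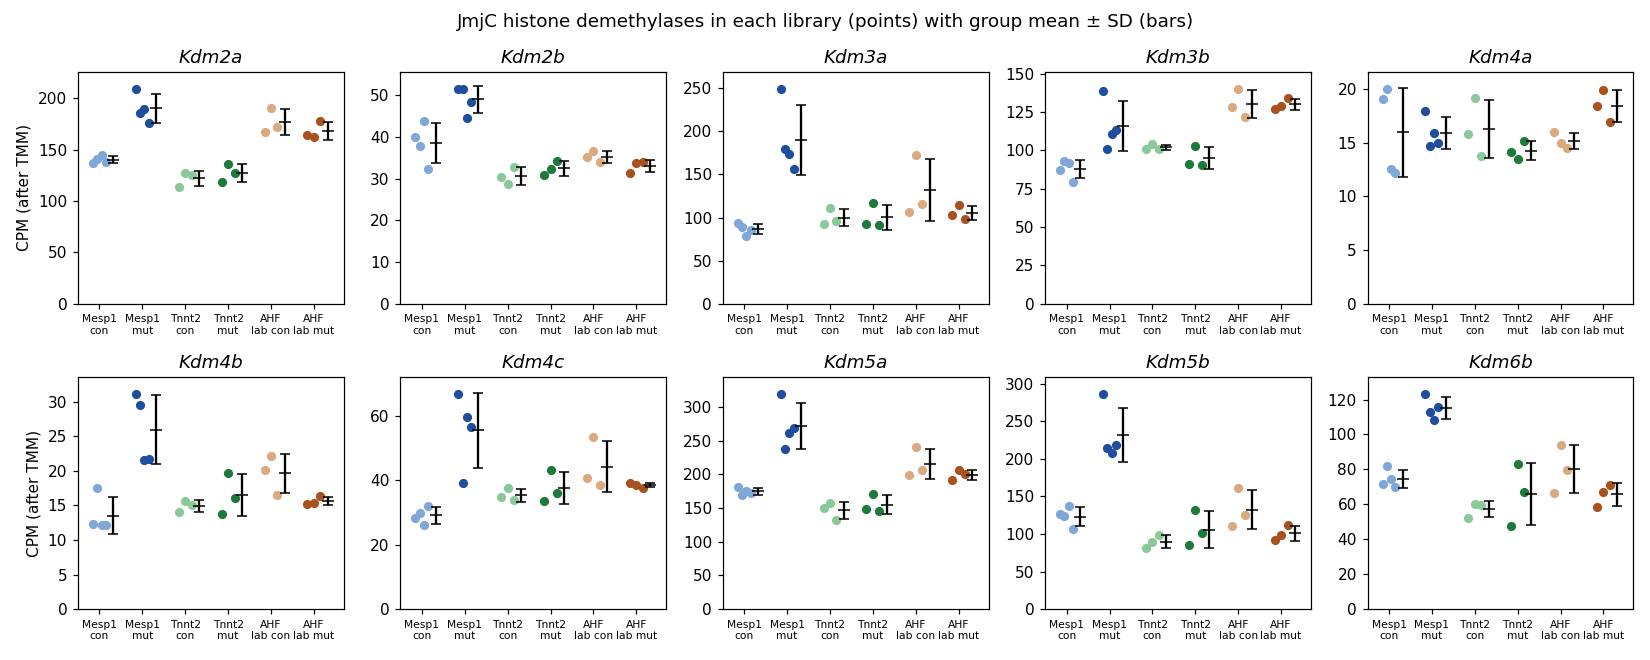
CPM after TMM of each demethylase, 1 panel per gene with an axis from 0, 1 point per library, and group mean ± SD as bars beside the points (n = 4 for Mesp1, n = 3 for Tnnt2 and for AHF, which stands for Mef2cAHF::Cre by label). In 9 panels the 4 Mesp1Cre mutants are all above the 4 Mesp1Cre controls, and in the Kdm4a panel they are not.

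Other measurements moved with the Mesp1Cre genotype, and their part in the rise of the demethylases was not tested. A list of 25 genes of the hypoxia response, none of them a member, was higher in mutants for 25 of 25, with a median log2 fold change of 1.39. This list and the marker lists below were chosen with earlier results of these data known, so the counts are descriptions. Of all genes 6.17% were higher and 5.29% lower. The summed level of the hypoxia list was 9550 to 11200 CPM in mutants and 5430 to 6220 CPM in controls. Among its genes with the smallest p, Bnip3, a mitophagy receptor, rose by 1.90 ± 0.14 (FDR 1.29e-05) and P4ha2, a collagen prolyl hydroxylase, by 2.18 ± 0.18 (FDR 1.86e-05). Erythroid markers were lower for 4 of 14, with a median of -1.13, and summed to 1940 to 7620 CPM in mutants and 5440 to 17900 CPM in controls. Endothelial markers were higher for 5 of 10 (786 to 894 CPM in mutants and 538 to 630 CPM in controls), and 2 of 14 cardiomyocyte markers were higher and 2 lower. Smooth muscle markers had a median of -0.38, with 1 of 5 lower, Cnn1 (-0.46 ± 0.09, FDR 0.00481), and 4 lower at an unadjusted p under 0.05. Of 9 mesenchyme markers 1 was lower, and 0 of 6 epicardial markers passed the test in edgeR, with 0 at an unadjusted p under 0.05. Among macrophage markers 1 of 4 tested was lower, with Fcgr1 at 0 in all mutants and Emr1 at 0 in all controls. By Y-linked transcripts 4 of 4 mutants and 2 of 4 controls were male, and the mutants had 21727258 to 24981332 reads against 25581534 to 28790705 in controls. With sex as a covariate, 7 members passed, and with erythroid content as a covariate 7. In each of these fits fewer genes passed over the whole table than in the main fit. All 4 mutants were male, so the sex term was estimated from the 4 controls alone. The counts of 7 are therefore descriptions, and the part of sex or erythroid content in the rise was not tested.

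In 3 of the 6 groups the library with the highest mean level of the hypoxia list was the highest for 8 to 10 members, and in the other 3 groups for 2 to 3. Mesp1Cre mutant 1 had the highest mean level of the list among the mutants, 7.51 in log2 CPM, and was the highest mutant for 10 of the 10 members. Tnnt2::Cre mutant 2 had the highest mean in its group, 6.80 against 6.03 for the next, and was highest for 8 members, all but Kdm2b and Kdm4a. Mef2cAHF::Cre labelled control 2 had 6.77 against 5.99 for the next and was highest for 9 members, all but Kdm4a. These are descriptions over 3 or 4 libraries a group. The same count was not made over all genes, so whether it is particular to the members is not known. The libraries that stand apart also differ in erythroid content. In mean log2 CPM it was 7 for Tnnt2::Cre mutant 2 and 5.69 for labelled control 2, the lowest of their groups.

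**Figure D3:**
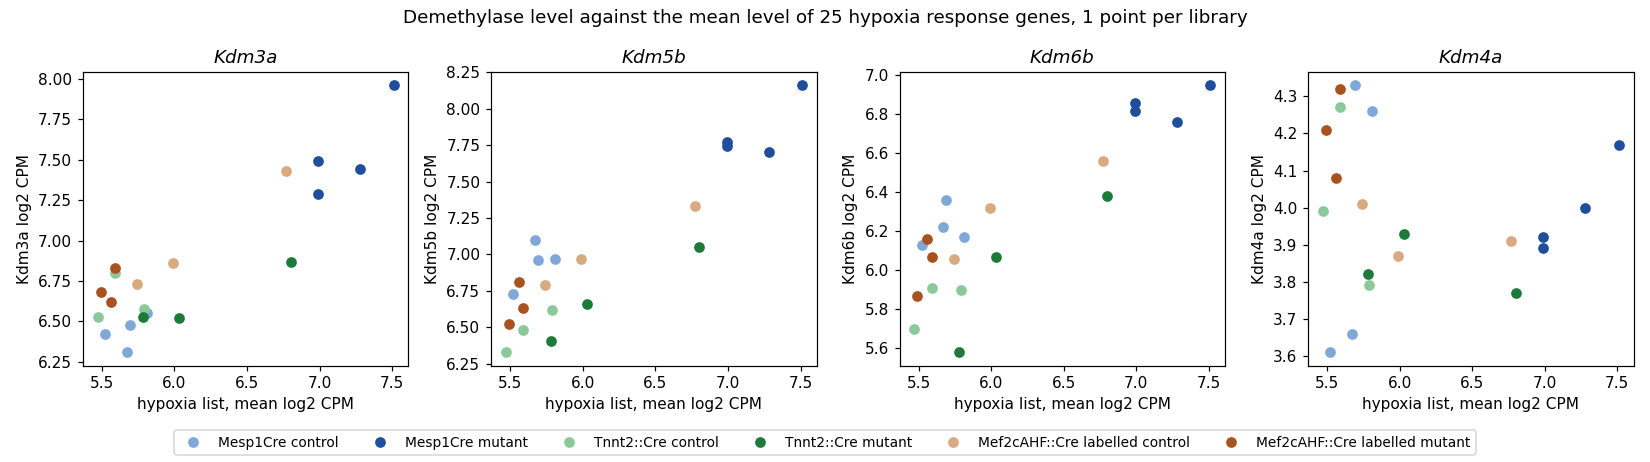
Log2 CPM of Kdm3a, Kdm5b, Kdm6b and Kdm4a against the mean log2 CPM of the 25 genes of the hypoxia list, 1 point per library, coloured by group. The 4 Mesp1Cre mutants are at 6.99 to 7.51 on the horizontal axis, and Tnnt2::Cre mutant 2 and Mef2cAHF::Cre labelled control 2 at 6.80 and 6.77, with Kdm3a, Kdm5b and Kdm6b high in those libraries relative to their own group and Kdm4a not.

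Since most members rose together, the 250 bases before the 5′ end of each gene in the table were read from mm9 and searched for the core of the HIF binding site, ACGTG or GCGTG, on both strands. This core lies inside the E-box CACGTG, which other factors bind. It was present in 6 of 10 members, as against 36.7% of 33200 windows of that length, and CACGTG was in 5.49% of windows. These windows are of genes in the whole table, expressed in these hearts or not, and are not matched to the members. Kdm4b had 5 matches, Kdm2a 4, Kdm2b and Kdm5b 2 each, and Kdm3a and Kdm6b 1 each. In Kdm4b and in Kdm2a, 2 of these matches are 1 CACGTG, which holds the core on both strands and was counted on each. No match was found in the windows of Kdm3b, Kdm4a, Kdm4c and Kdm5a. Of these, Kdm3b, Kdm4c and Kdm5a are among the 8 members that rose. Kdm2b, with 2 matches, missed the threshold. Annotated exons cover 203 of the 250 bases in the window of Kdm2b and 45 in that of Kdm5a. A match is a description of the sequence and no evidence that a factor binds there. The windows are set by the 5′ end of the gene in the table, and which start site these hearts use was not examined. The lack of a match is therefore no evidence that a factor does not bind near the gene. The windows of the 3 members with the largest rises that hold the core are shown 5′ to 3′ on the strand of the gene, and matches on either strand are in capitals. They lie at chr6:71582900-71583149 (minus strand), chr17:56465235-56465484 (plus strand) and chr1:136456498-136456747 (plus strand) in mm9, outside annotated exons. The match in Kdm3a is 39 bases from the 5′ end of the gene. Shown beside them as windows with no match are those of Kdm4c, which rose, at chr4:73888151-73888400 (plus strand), and of Kdm4a, which did not pass the test, at chr4:117852649-117852898 (minus strand).
Kdm3a: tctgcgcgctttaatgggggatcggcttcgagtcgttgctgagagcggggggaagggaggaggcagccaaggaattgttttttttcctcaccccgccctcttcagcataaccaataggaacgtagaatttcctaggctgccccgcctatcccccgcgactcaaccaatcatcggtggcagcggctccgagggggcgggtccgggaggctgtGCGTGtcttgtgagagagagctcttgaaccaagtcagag
Kdm4b: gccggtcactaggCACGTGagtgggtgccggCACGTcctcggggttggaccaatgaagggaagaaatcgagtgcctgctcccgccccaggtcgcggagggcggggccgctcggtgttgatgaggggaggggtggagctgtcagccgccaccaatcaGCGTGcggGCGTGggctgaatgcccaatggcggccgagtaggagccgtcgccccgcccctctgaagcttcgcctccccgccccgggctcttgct
Kdm5b: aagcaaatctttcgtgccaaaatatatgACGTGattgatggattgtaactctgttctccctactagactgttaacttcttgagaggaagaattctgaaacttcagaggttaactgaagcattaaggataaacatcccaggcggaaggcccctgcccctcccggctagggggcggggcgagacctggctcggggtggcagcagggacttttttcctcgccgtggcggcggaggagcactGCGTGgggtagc
Kdm4c: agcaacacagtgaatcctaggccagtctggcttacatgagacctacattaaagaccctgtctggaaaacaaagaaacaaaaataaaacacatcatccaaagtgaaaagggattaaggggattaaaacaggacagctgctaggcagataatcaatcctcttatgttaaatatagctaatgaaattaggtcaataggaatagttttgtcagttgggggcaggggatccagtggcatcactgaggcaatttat
Kdm4a: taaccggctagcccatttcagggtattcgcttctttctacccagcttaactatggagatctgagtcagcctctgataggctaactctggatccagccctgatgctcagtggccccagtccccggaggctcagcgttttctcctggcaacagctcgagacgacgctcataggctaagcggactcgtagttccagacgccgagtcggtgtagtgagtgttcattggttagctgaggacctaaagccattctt

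The genes are spread over the genome, and 9 of them lie at chr1:136456748-136529454 for Kdm5b, chr4:73888401-74051765 for Kdm4c, chr4:117809562-117852648 for Kdm4a, chr5:123320677-123439315 for Kdm2b, chr6:71539039-71582899 for Kdm3a, chr6:120314137-120394592 for Kdm5a, chr11:69212010-69227177 for Kdm6b, chr17:56465485-56542293 for Kdm4b and chr19:4316170-4397077 for Kdm2a in mm9. Exons of another gene on the other strand cover 4.11% of the exonic bases of Kdm6b, 1.95% of those of Kdm5a and 0.687% of those of Kdm3b. Reads from these bases cannot be assigned if counting ignored strand. The other members share no exonic base with another annotated gene.

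Among the rest of the JmjC family, 4 of 18 gene entries tested rose in Mesp1Cre mutants and none fell. Of all genes 6.17% were higher and 5.29% lower. Jhdm1d, which encodes a demethylase of H3K9 and H3K27, rose by 1.15 ± 0.12 (FDR 0.000124), and Jarid2, which encodes a Polycomb partner without demethylase activity, by 1.02 ± 0.10 (FDR 8.02e-05). Jmjd6 rose by 0.66 ± 0.17 (FDR 0.0275) and Jmjd1c by 0.35 ± 0.10 (FDR 0.0351). Jmjd1c has more than 1 entry, and this one had a mean of 209 CPM in mutants and 165 CPM in controls. The median over these 18 entries was 0.14. Of the LSD1 family, the demethylases that use flavin in place of iron and their partners, 1 of 5 rose (Rcor2, 0.72 ± 0.16, FDR 0.0145).

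Lists of methyltransferase genes and of partners of KDM2B were read in the same comparison, where 6.17% of all genes were higher and 5.29% lower. At an unadjusted p under 0.05, 26.9% of all genes passed in either direction. In the list of 11 genes named as H3K4 methyltransferases, which includes Kmt2d itself, 2 rose. Mll5 rose by 0.66 ± 0.09 (FDR 0.000548), and whether its product methylates H3K4 was not examined. Mll3, the paralog of Kmt2d, rose by 0.29 ± 0.07 (FDR 0.0199). In edgeR 0 of 9 H3K9 methyltransferases passed the test, with 1 at an unadjusted p under 0.05, and 0 of 8 H3K36 methyltransferases, with 3 higher and 1 lower at an unadjusted p under 0.05. Of the genes of Polycomb repressive complex 2, which methylates H3K27, 1 of 10 rose (Rbbp7, 0.27 ± 0.08, FDR 0.039). In that list 3 were higher and 0 lower at an unadjusted p under 0.05. Of 9 partners of KDM2B in variant Polycomb repressive complex 1, Bcor (0.40 ± 0.10, FDR 0.0177) and Bcorl1 (0.42 ± 0.12, FDR 0.0403) rose, while Skp1a fell (-0.31 ± 0.08, FDR 0.0309). Medians over these lists were between -0.07 and 0.08.

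In Tnnt2::Cre hearts, with Kmt2d deleted in cardiomyocytes, no member passed the test (0 of 10, where 0.293% of 17045 genes did), and 0 of 10 had an unadjusted p under 0.05, where 11.9% of all genes did. DESeq2's Wald test also called 0. Log2 fold changes were between -0.21 for Kdm4a and 0.23 for Kdm5b, with a median of 0.07. Kdm3a, the member with the largest rise in Mesp1Cre, had 92.3, 117 and 91.9 CPM in mutants and 92.2, 111 and 95.8 CPM in controls, a difference of 0.00 ± 0.13 on the log2 scale. Its 2 groups had nearly the same range.

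Kdm5b had 84.8, 132 and 101 CPM in mutants and 80.7, 89.4 and 98.1 CPM in controls (0.23 ± 0.16, FDR 0.611). Kdm6b had 47.6, 83.0 and 67.0 CPM in mutants and 52.1, 60.2 and 59.5 CPM in controls (0.19 ± 0.18, FDR 0.735). For both genes mutant 2 was the highest library, mutant 1 was close to or below the controls, and the groups overlapped. Without mutant 2 the differences were 0.04 for Kdm5b and -0.01 for Kdm6b. The hypoxia list had a median of 0.62 in this comparison, with 0 of 25 genes past the threshold in edgeR and 18 higher at an unadjusted p under 0.05. Erythroid markers had a median of -0.93, with 0 of 14 past the threshold and 0 at an unadjusted p under 0.05.

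The remaining members varied less. Kdm5a (149, 171 and 145 CPM in mutants and 150, 157 and 133 CPM in controls), Kdm4c (33.6, 43.3 and 36.2 CPM and 34.7, 37.7 and 33.8 CPM) and Kdm4b (13.7, 19.7 and 16.1 CPM and 14.0, 15.7 and 15 CPM) differed by 0.07 ± 0.11, 0.08 ± 0.12 and 0.13 ± 0.15 on the log2 scale. Kdm2a differed by 0.05 ± 0.10, Kdm2b by 0.07 ± 0.10 and Kdm3b by -0.12 ± 0.09. The groups overlapped for all 10 members, which for 17.3% of all genes they did not.

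In Mef2cAHF::Cre right ventricle and outflow tract, no member passed the test either (0 of 10, where 2.85% of 16920 genes did). At an unadjusted p under 0.05 there were 4 members, where 17.9% of all genes passed, and DESeq2's Wald test called 1, Kdm5b. By the titles, 9 of 10 members had lower estimates in the libraries labelled mutant, with a median of -0.16, and by the column names these 9 had higher estimates in mutants, with each sign reversed. The change in direction between readings leaves the direction for this line unknown, and the values are given by library.

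Kdm5b had 91.9, 98.8 and 112 CPM in the libraries labelled mutant and 111, 161 and 125 CPM in those labelled control. The difference was -0.40 ± 0.13 by the titles and 0.40 by the column names (FDR 0.141), with an overlap of 1 library on each side. It passed the threshold with DESeq2's Wald test (FDR 0.0374) and with no filter on low counts (FDR 0.0144). Kdm3a had 103, 114 and 98.0 CPM in the libraries labelled mutant and 106, 173 and 116 CPM in those labelled control (-0.33 ± 0.16 by the titles and 0.33 by the column names, FDR 0.324). For both genes labelled control 2 was the highest of the 6, and without it the differences were -0.23 for Kdm5b and -0.09 for Kdm3a by the titles.

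Kdm4b had 15.2, 15.4 and 16.3 CPM in the libraries labelled mutant and 20.2, 22.2 and 16.5 CPM in those labelled control, without overlap (-0.34 ± 0.12 by the titles and 0.34 by the column names, FDR 0.165). Kdm4a went the other way, with 18.4, 19.9 and 16.9 CPM in the libraries labelled mutant and 16, 15 and 14.5 CPM in those labelled control, also without overlap (0.27 ± 0.10 by the titles and -0.27 by the column names, FDR 0.202). Groups did not overlap for 23.6% of all genes. Kdm6b had 58.5, 67.1 and 71.3 CPM in the libraries labelled mutant and 66.5, 94.0 and 79.6 CPM in those labelled control (-0.29 ± 0.12 by the titles and 0.29 by the column names, FDR 0.24).

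The remaining 5 members, Kdm2a, Kdm2b, Kdm3b, Kdm4c and Kdm5a, differed by -0.21 to -0.01 by the titles, and by 0.01 to 0.21 by the column names, with overlapping groups. In these libraries 3 of 25 genes of the hypoxia list were lower in those labelled mutant by the titles, with a median of -0.68. At an unadjusted p under 0.05, 17 were lower and 0 higher. Of 14 erythroid markers 2 were higher by the titles, with a median of 0.92. By the column names each of these signs is reversed. Labelled control 2, which stood apart in the hypoxia list, was also the only male library of the 6, and the part of these differences in the members' values was not tested.

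Whether the change in Mesp1Cre differed from that in Tnnt2::Cre was tested as an interaction in 1 fit of all 20 libraries. The rise was larger in Mesp1Cre for 5 members, where 1.23% of 18391 genes had a larger change in that direction. The difference was 1.12 ± 0.22 on the log2 scale for Kdm3a (FDR 0.0113), 0.84 ± 0.20 for Kdm4c (FDR 0.0304), 0.56 ± 0.13 for Kdm5a (FDR 0.0282), 0.51 ± 0.13 for Kdm3b (FDR 0.0392) and 0.38 ± 0.10 for Kdm2a (FDR 0.0483). For Kdm4b (0.80 ± 0.23, FDR 0.0629), Kdm5b (0.66 ± 0.21, FDR 0.0824), Kdm6b (0.43 ± 0.19, FDR 0.228), Kdm2b (0.27 ± 0.13, FDR 0.291) and Kdm4a (0.19 ± 0.23, FDR 0.715) it missed the threshold. Of 14 fits that left out 1 library Kdm3a passed in 14, Kdm5a in 10, Kdm4c in 9, Kdm3b in 6 and Kdm2a in 3, and the count of members over those fits was 1 to 8. The call for Kdm2a was also lost with DESeq2 size factors (FDR 0.0514) and with no filter on low counts (FDR 0.111). Cre line and stage cannot be told apart in this comparison, nor can a number in the sample names that differs between Cre lines and that the labels do not explain.

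Between Tnnt2::Cre and Mef2cAHF::Cre, 0 members differed in their change in edgeR by the titles, where 3.19% of genes did, and 0 by the column names, where 0% did. Members with an unadjusted p under 0.05 numbered 2 by the titles, where 15.3% of genes passed, and 0 by the column names, where 2.57% did, and DESeq2's Wald test by the titles gave 0. By the titles the largest difference was for Kdm5b, 0.63 ± 0.22 (FDR 0.144), which was -0.17 ± 0.22 by the column names. By the column names it was for Kdm3a, -0.34 ± 0.24, which was 0.33 ± 0.24 by the titles (FDR 0.597). By the titles, 8 of 10 estimates were positive and by the column names 1 of 10.

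**Figure D4:**
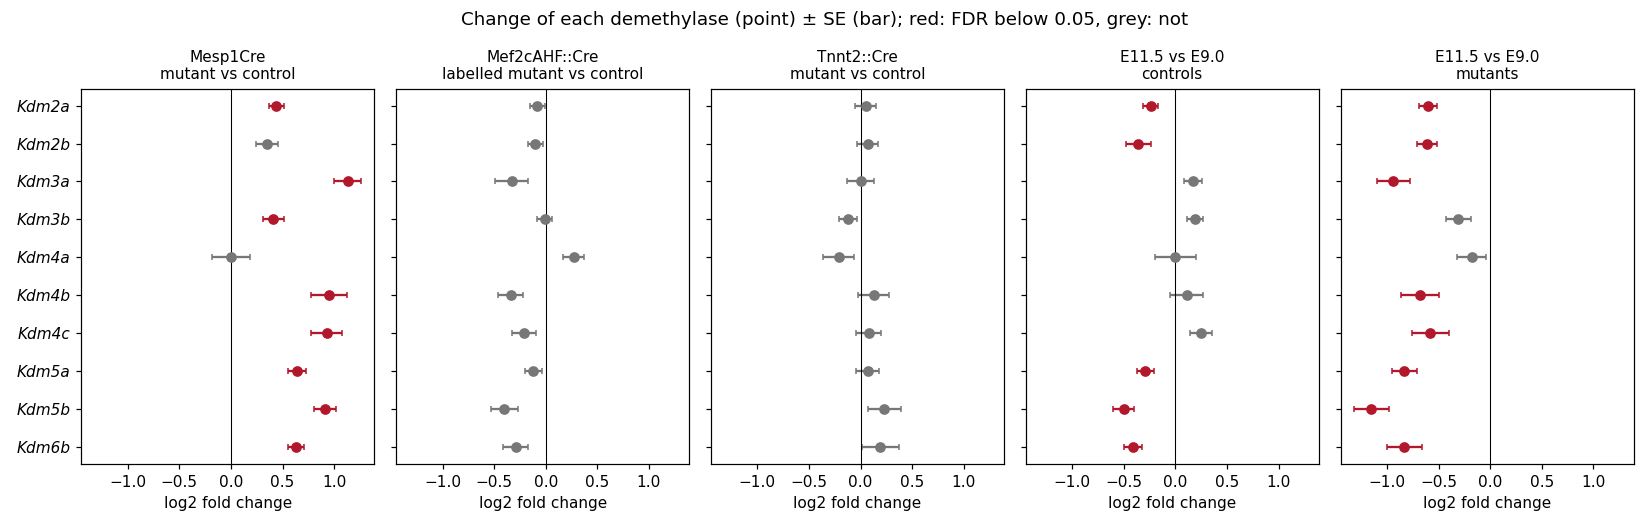
Log2 fold change ± SE of the 10 demethylases in 3 comparisons of mutants with controls and 2 of E11.5 with E9.0, with genes at an FDR below 0.05 in red and others in grey. Red points are to the right of 0 in Mesp1Cre (8 genes) and to the left in the stage comparisons (5 and 8 genes), and Mef2cAHF::Cre, drawn by the titles, would be mirrored by the column names.

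Whole hearts at E11.5 (Tnnt2::Cre) were compared with whole hearts at E9.0 (Mesp1Cre) in controls and, in separate libraries, in mutants. Stage cannot be told apart here from Cre line or from that number in the sample names. Of 16697 genes tested in controls, 18.8% were lower and 19.6% higher at E11.5, and 5 members were lower and 0 higher in edgeR. At an unadjusted p under 0.05 there were 5 lower and 2 higher, Kdm3b and Kdm4c, where 46.8% of genes passed, and DESeq2's Wald test called 5 in all. Among genes at least as long and as abundant as the lowest member, 36.3% were lower, so that 5 of 10 is closer to that share. The controls are the same libraries as in the comparisons of genotype.

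Kdm5b was lower at E11.5 in controls by the largest amount, with 80.7, 89.4 and 98.1 CPM against 126, 124, 137 and 106 CPM at E9.0, and the groups did not overlap. Its log2 fold change was -0.50 ± 0.10 (FDR 0.00214). Kdm6b fell by 0.41 (SE 0.09, FDR 0.00377), Kdm2b by 0.36 (SE 0.12, FDR 0.0317), Kdm5a by 0.29 (SE 0.08, FDR 0.0148) and Kdm2a by 0.24 (SE 0.07, FDR 0.0235). In the 7 fits that left out 1 library Kdm2a passed in 5 and Kdm2b in 2, and without Tnnt2::Cre control 1 only Kdm5b and Kdm6b passed. The KDM3 and KDM4 genes did not pass, with estimates from 0.00 for Kdm4a to 0.25 ± 0.11 for Kdm4c (FDR 0.0942).

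In mutants, 8 members were lower at E11.5 and 0 higher in edgeR, and at an unadjusted p under 0.05 there were 9 lower and 0 higher, where 46.2% of genes passed. Of 16617 genes 17.1% were lower and 18.8% higher, and 33.8% were lower among genes at least as long and as abundant as the lowest member. On the log2 scale Kdm5b fell by 1.15 (SE 0.17, FDR 0.000878), Kdm3a by 0.94 (SE 0.16, FDR 0.00217), Kdm5a by 0.83 (SE 0.12, FDR 0.00071) and Kdm6b by 0.83 (SE 0.17, FDR 0.00427). Kdm4b fell by 0.68 (SE 0.18, FDR 0.0178), Kdm2b by 0.61 (SE 0.10, FDR 0.00183), Kdm2a by 0.60 (SE 0.09, FDR 0.00112) and Kdm4c by 0.58 (SE 0.18, FDR 0.0289). In the 7 fits that left out 1 library Kdm4c passed in 2, without Tnnt2::Cre mutant 2 or Mesp1Cre mutant 2, and Kdm4b in 5, all but those without Tnnt2::Cre mutant 1 or mutant 3. With sex as a covariate the calls were lost for Kdm4c (FDR 0.184), Kdm4b (FDR 0.168), Kdm6b (FDR 0.09) and Kdm2b (FDR 0.0798). The libraries are those given above for Mesp1Cre and Tnnt2::Cre mutants, and the difference between the stage changes of mutants and controls is the interaction already tested. Kdm3b differed by -0.31 ± 0.12 (FDR 0.0701) and Kdm4a by -0.18 ± 0.14 (FDR 0.33).

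Cell type markers and the hypoxia list moved with stage. Erythroid markers were higher at E11.5 for 14 of 14 genes in controls, with a median log2 difference of 3.21 and summed levels of 104000 to 161000 CPM against 5440 to 17900 CPM. Epicardial markers were higher for 7 of 7 and mesenchyme markers for 9 of 9 in controls, and in mutants for 6 of 6 and 8 of 9. Macrophage markers were higher for 5 of 8 in controls and 7 of 8 in mutants. The hypoxia list was lower at E11.5 for 16 of 25 genes in mutants, with a median log2 difference of -1.02, and in controls 4 of its genes were higher and 8 lower, with a median of -0.12. Smooth muscle markers were lower for 3 of 5 in controls, and in mutants 1 was higher and 1 lower. The part of these differences in those of the members was not tested. With erythroid content as a covariate 0 members passed in controls and 0 in mutants, in fits where the covariate nearly coincides with stage.

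Across the 20 libraries the members differed in how closely they ran together. Pearson's r of log2 CPM was 0.97 for Kdm5b with Kdm6b, 0.94 for Kdm2a with Kdm5a and 0.91 for Kdm3a with Kdm4b. Kdm4a ran apart, with r of -0.05 with Kdm5b and -0.02 with Kdm2b. These coefficients are over libraries that share groups, and describe the pattern only.

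Among 12300 other genes compared in the same way, the most like Kdm3a was Ogt (r 0.953), which encodes O-GlcNAc transferase, and Ogt was also among the top 2 for Kdm4c (r 0.94) after Pde4b (r 0.96), a cAMP phosphodiesterase. Zfp516 led for Kdm5b (r 0.968) and for Kdm6b (r 0.959), followed by Sbf2 (r 0.964) and Porcn (r 0.958). For Kdm5a the top genes were Setd5 (r 0.974) and Mllt10 (r 0.97), both of which encode chromatin proteins, and for Kdm2a the top gene was Prex2 (r 0.975). Kdm3b was most like Ankrd12 (r 0.941) and Chd6 (r 0.931), and Kdm4b like Rundc3b (r 0.934) and Cpne3 (r 0.907). Kdm3a's second gene was Pgbd1 (r 0.938).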

How the data were processed

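RNA of embryonic hearts was sequenced by the authors, who aligned reads to mm9 (TopHat2 2.0.8b per the submitters' notes) and assigned them to genes with featureCounts. The deposited counts per gene are not normalized. The FPKM deposited beside them were computed by the authors with USeq. The 20 columns of variance-stabilised values were not used, and the use of strand, which could split reads of overlapping genes, is not given in the sources used here. The labels and the paper differ on library kit and instrument, and the protocol text of the labels gives E11.5 also for Mesp1Cre, whose age label is E9.0.

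Counts were compared in R 4.3.3 with edgeR 4.0.16 (filterByExpr, TMM, quasi-likelihood F test), each comparison on its own libraries and interactions in 1 fit of 6 groups. Interactions give the difference of log2 fold changes. log2 CPM used a prior count of 2. Libraries with at least 10 CPM of Y-linked transcripts were taken as male. The alternatives used limma 3.58.1 on log2(FPKM + 0.1) and DESeq2 1.42.0, other scaling, no filter, sex, erythroid content or replicate number as a term, and each library left out. The main fits of the genotype and stage comparisons and the interaction of Mesp1Cre with Tnnt2::Cre were tried on simulated counts. The other interaction and the alternatives were not. Replicate numbers were not used to pair the samples in the main fits. Deviations of same-numbered libraries correlated at -0.04 to 0.18, which in groups this small cannot show whether samples shared a litter. The number in the sample descriptions of Mesp1Cre was tried as a block after the values were seen. Promoter windows were read from the mm9 genome with Python 3.11.15. Total reads per library bound the precision of counts.

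Named were the members, Kmt2d, up to 4 genes per list past the threshold by smallest p, and for each member that passed in Mesp1Cre the 2 genes most like it in log2 CPM, among genes with an average of at least 1, of which 1 is not reported here. The members, lists and tests were chosen with earlier results of these data known.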

Additional observations from a re-analysis of the deposited data

Results flagged for a closer look

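Within the groups of 4 libraries, 1 library stood far from the others in 2 of the 20 groups of member and genotype that were checked, when chance gives about 1 in 20. Kdm4b had 17.5 CPM in Mesp1Cre control 2, with a gap to the next library of 0.95 of the group's range. Kdm5b had 286 CPM in Mesp1Cre mutant 1, with a gap of 0.87 of the range, and both gaps are past the critical value of Dixon's test. Without these libraries both genes stayed past the threshold.

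The change with genotype differed between Mesp1Cre at E9.0 and Tnnt2::Cre at E11.5 for 5 members by the interaction test of edgeR. The difference in log2 fold change was 0.38 for Kdm2a (FDR 0.0483), 1.12 for Kdm3a (FDR 0.0113), 0.51 for Kdm3b (FDR 0.0392), 0.84 for Kdm4c (FDR 0.0304) and 0.56 for Kdm5a (FDR 0.0282). In these genes the 4 Mesp1Cre mutants were above the 4 controls, while Tnnt2::Cre mutants and controls overlapped. With 1 library left out in turn, the call held in 14 of 14 fits for Kdm3a, 10 for Kdm5a, 9 for Kdm4c, 6 for Kdm3b and 3 for Kdm2a.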

How the results depend on the processing

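In Mesp1Cre 7 to 9 members passed under each alternative, all of them higher, and Kdm3a, Kdm4b, Kdm4c, Kdm5a, Kdm5b, Kdm6b and Kdm2a passed in each. In Mef2cAHF::Cre 1 member passed with DESeq2's Wald test and 1 with no filter. Stage in controls gave 3 members with no filter, 3 with the replicate block and 0 with erythroid content. Stage in mutants gave 4 with sex as a covariate and 0 with erythroid content. The cause was not tested. The replicate block changed no other count by over 1.5 times, with 7 members called for stage in mutants, 8 for Mesp1Cre, 0 for either other Cre line and 4 for the interaction of Mesp1Cre with Tnnt2::Cre. Under it the interaction lost Kdm2a (FDR 0.0805) and Kdm3b (FDR 0.0681) and gained Kdm4b (FDR 0.0453), stage in mutants lost Kdm4c (FDR 0.135) and stage in controls Kdm2a (FDR 0.0868) and Kdm5a (FDR 0.0597). With the number in the sample descriptions as the block in Mesp1Cre, a fit chosen after seeing the data, 8 members passed, all higher, and Kdm4a was 0.03. Deviations of mutants and controls that share this number correlated at -0.03 to 0.09 over 6 pairs, against -0.07 to 0.05 over 10 pairs that do not. For replicate numbers these correlations were -0.04 to 0.18, and not every sample correlated best with its own number. In groups this small, neither set of correlations can show whether samples were paired.

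With 1 library left out, the count was 7 to 9 in Mesp1Cre, 6 to 9 for stage in mutants, 0 in Mef2cAHF::Cre and Tnnt2::Cre, and 2 to 5 for stage in controls (2 without Tnnt2::Cre control 1 and 3 without Mesp1Cre control 3). For the interaction of Mesp1Cre with Tnnt2::Cre it was 1 to 8, with 1 without Tnnt2::Cre mutant 1, mutant 3, control 1 or control 2, 2 without Mesp1Cre mutant 1, 3 without Tnnt2::Cre control 3 or Mesp1Cre control 1 or control 4, and 8 without Tnnt2::Cre mutant 2. For that of Tnnt2::Cre with Mef2cAHF::Cre it was 0 to 2, with 2 without Tnnt2::Cre mutant 1.

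Signs turned for values near 0. Kdm4a in Mesp1Cre was 0.00 with DESeq2 size factors, 0.03 with the replicate block and 0.03 with sex, and -0.11 to 0.12 with 1 library left out. For stage in controls Kdm4a was 0.03 with no filter, 0.03 in the 6-group fit, 0.91 with erythroid content and -0.13 to 0.12 with 1 library left out. In Mef2cAHF::Cre Kdm3b was 0.04 with sex and -0.05 to 0.05 with 1 library left out. In Tnnt2::Cre Kdm3a was 0.02 on centred FPKM. With 1 library left out of Tnnt2::Cre, Kdm2a was 0.00 to 0.10, Kdm3a -0.13 to 0.08, Kdm4b -0.02 to 0.25, Kdm4c -0.04 to 0.16, Kdm5a -0.01 to 0.12 and Kdm6b -0.01 to 0.38.

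With erythroid content as a covariate, Mef2cAHF::Cre gave 0.04 for Kdm2a, 0.09 for Kdm3b, 0.02 for Kdm4c and 0.01 for Kdm5a. Tnnt2::Cre gave -0.04 for Kdm2a, -0.11 for Kdm4b, -0.08 for Kdm4c, -0.09 for Kdm5b and -0.21 for Kdm6b. Stage gave -0.01 for Kdm4c in controls, and 0.09 for Kdm3b and 0.16 for Kdm4c in mutants. By the column names, Mef2cAHF::Cre gave 0.08 for Kdm2a, 0.10 for Kdm2b, 0.33 for Kdm3a, 0.01 for Kdm3b, -0.27 for Kdm4a, 0.34 for Kdm4b, 0.21 for Kdm4c, 0.12 for Kdm5a, 0.40 for Kdm5b and 0.29 for Kdm6b. The interaction with Tnnt2::Cre then gave -0.04 for Kdm2a, -0.03 for Kdm2b, -0.34 for Kdm3a, 0.06 for Kdm4a, -0.21 for Kdm4b, -0.13 for Kdm4c, -0.05 for Kdm5a, -0.17 for Kdm5b and -0.11 for Kdm6b. Before centring, FPKM shifted the median of all genes by 0.15 for Mesp1Cre, 0.11 for Tnnt2::Cre and -0.13 for Mef2cAHF::Cre on the log2 scale.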
